A study of Homo sapiens with 6 samples.

Results

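The genes described here are the main transcriptional brakes and outputs of the ERK pathway, together with the PEA3-type ETS factors that the pathway drives, in SKBR3 cells with or without forced expression of cortactin (CTTN). The 10 members were chosen by gene name, as the table rows that carried DUSP4, DUSP5, DUSP6, SPRY1, SPRY2, SPRY4, SPRED1, SPRED2, ETV4 or ETV5, and they made up 10 of 54644 gene rows. All 10 were among the 14409 genes with enough reads to be tested.

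SKBR3 is an established breast adenocarcinoma line with amplified ERBB2 (HER2). Control cells carried the empty pLVX lentiviral vector and CTTN cells carried pLVX-CTTN, both after puromycin selection, with 3 replicates described as biological in each group. Control and CTTN cells were infected and selected as different populations, so a difference between the populations and an effect of the CTTN cDNA cannot be told apart. How many infections lay behind the replicates of a group was not established here. The libraries held between 34887069 and 41279816 reads assigned to genes.

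Levels are given as CPM (reads of a gene relative to the reads of its library, with libraries scaled by TMM factors) or as FPKM (fragments scaled for transcript length and library depth) where genes are compared with each other. Differences were tested over all genes with edgeR's quasi-likelihood test, and a gene was called where the adjusted p of Benjamini and Hochberg was under 0.05. Log2 fold changes are of CTTN over control cells and come with their standard error (SE).

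Growth factor receptors such as HER2 signal through Ras, RAF and MEK to ERK, and active ERK induces its own inhibitors. DUSP phosphatases remove the activating phosphates from ERK, whereas Sprouty and SPRED proteins act higher up, at the level of receptors, Ras and RAF. ETV4 and ETV5 are ETS transcription factors whose transcription also follows ERK activity, and the repressor CIC holds several of these genes down when ERK is inactive.

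Cortactin itself separated the groups. CTTN was at 793, 1011 and 520 CPM in CTTN replicates 1, 2 and 3, and at 299, 307 and 306 in the controls. Every CTTN library was above every control library, and replicate 3 was the lowest of the CTTN libraries. The fold change was 2.55 (log2 1.35, SE 0.22, edgeR adjusted p = 0.0275). Leaving out CTTN replicate 1, or any control replicate, ended this call, with edgeR adjusted p of 0.135 without CTTN replicate 1 and 0.15, 0.172 and 0.157 without control replicates 1, 2 and 3. In these fits the log2 fold change lay between 1.33 and 1.35. The call also ended in limma on FPKM (adjusted p = 0.0766 and 0.0719 with pseudocounts of 1 and 0.1) and in edgeR with a replicate block over 3 pairs, which pairs libraries by replicate number (adjusted p = 0.0676).

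Most genes of the luminal and HER2 marker list were present. ERBB2 stood at 1782, 1790 and 1644 FPKM in the CTTN libraries and at 1646, 1671 and 1708 in the controls. Of the 11 luminal and HER2 markers with a row of their own, 10 had a mean of at least 1 FPKM, the exception being CDH1, between 0.050 and 0.244 FPKM. Markers of other cell types were low. No leukocyte marker with its own row reached a mean of 1 FPKM, and the fibroblast and basal lists each had 1 gene above it, COL1A1 at 3.61 and TP63 at 2.06.

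The basal list was apart between the groups, with a summed level of 2.70, 3.55 and 2.68 FPKM in the CTTN libraries and 2.20, 2.39 and 2.31 in the controls. Of its 4 genes only TP63 had a mean above 1 FPKM, and it was higher in every CTTN library but not called (log2 0.39, SE 0.13, edgeR adjusted p = 0.129). TP63 was called by edgeR with an offset for transcript length (log2 0.56, adjusted p = 0.00717), without CTTN replicate 3 (adjusted p = 0.0459) and with a replicate block over 2 pairs, which leaves out CTTN replicate 3 and control replicate 1 (adjusted p = 0.0491). The block over 2 pairs called 11.4% of all genes. The replicate block over 3 pairs, which called 0.652%, did not call TP63 (log2 0.38, edgeR adjusted p = 0.17). The basal keratin genes KRT5 and KRT14 were at means of 0.363 and 0.041 FPKM, and the part of basal cells in the results below was not tested.

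The endothelial list also differed between the groups. Its summed level was 1.72, 2.19 and 1.55 FPKM in the CTTN libraries and 4.20, 4.65 and 4.20 in the controls. Nearly all of it was CDH5, a cadherin gene named here after its values were seen, which was lower in CTTN cells (log2 -1.49, SE 0.17, edgeR adjusted p = 0.00966). That call ended without CTTN replicate 1 (edgeR adjusted p = 0.081) and without control replicates 1, 2 or 3 (0.0662, 0.0892 and 0.0781). In these fits the log2 fold change lay between -1.52 and -1.45. The defining markers PECAM1, VWF and KDR were at means of 0.013, 0.134 and 0.029 FPKM, near 0. In bulk RNA, fewer cells of a type and less RNA per cell cannot be told apart, and the part of CDH5-expressing cells in the results below was not tested.

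The CTTN libraries stood apart from one another before any gene was considered. On the first principal component, which held 75.4% of the variance, the controls lay between 16.3 and 22.9, CTTN replicate 2 at 7.43, replicate 1 at -19.7 and replicate 3 at -48.9. These libraries also differed by transcript length. Among the 1357 tested genes whose most abundant isoform was over 6 kb, the median log2 ratio to the control mean was -0.39 in CTTN replicate 1, -0.01 in replicate 2 and -0.72 in replicate 3. Among the 2405 genes with isoforms of up to 1 kb it was 0.17, 0.01 and 0.43 in the same order. The controls lay between -0.06 and 0.03 for the long genes and between -0.03 and 0.04 for the short ones. CTTN replicate 2 thus lay within the controls on this measure, while replicates 1 and 3 had fewer reads from long transcripts and more from short ones. An offset for transcript length was therefore added after the data were seen. With it CTTN was at log2 1.40 (edgeR adjusted p = 0.0039) and CDH5 at -1.35 (edgeR adjusted p = 0.000629), and both were also called without CTTN replicate 2 and without CTTN replicate 3.

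**Figure D1:**
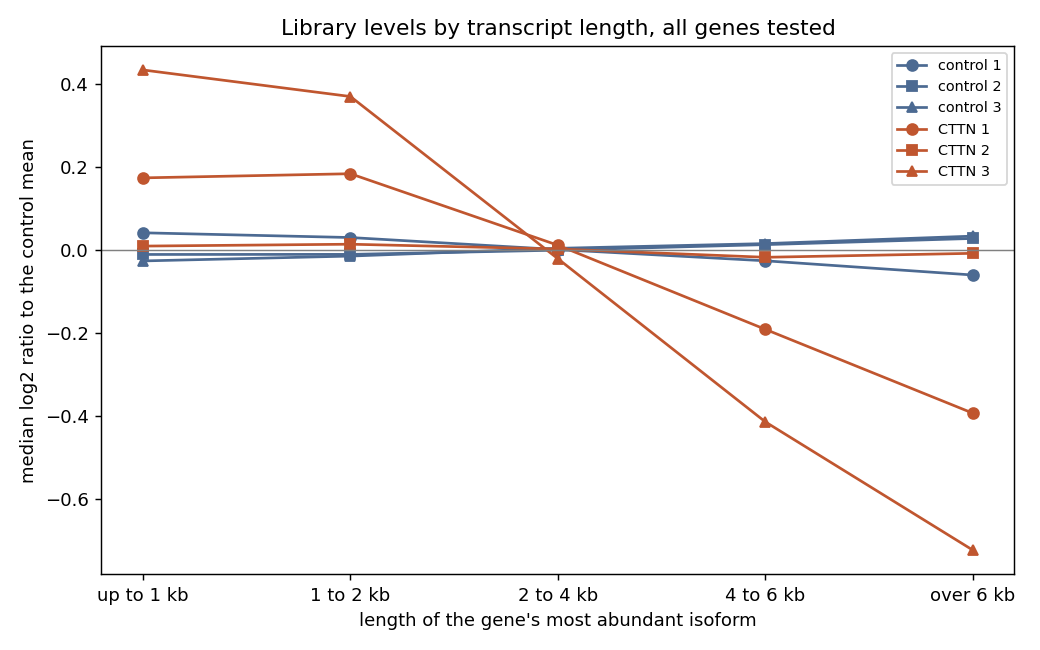
Median log2 ratio of each library to the control mean (vertical axis) for genes grouped by the length of their most abundant isoform (horizontal axis), with 1 line per library. The lines of CTTN replicates 1 and 3 slope down to -0.39 and -0.72 over 6 kb, while CTTN replicate 2 stays with the 3 controls.

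Across all genes, 555 of 14409 were called at an adjusted p under 0.05, 297 higher and 258 lower in CTTN cells, and 437 (3.03% of all genes tested) also passed 1.5-fold. Among the 10 members, 1 was called, against 3.85% of all genes tested. DUSP5 was that gene, and it was higher in CTTN cells (2.06% of all genes were called in that direction and 1.79% in the other). The number of calls depended strongly on single libraries. Without CTTN replicate 1 there were 17 calls in all and 0 among the members, without replicate 2 there were 6882 and 8, and without replicate 3 there were 1271 and 2. These fits called 0.116%, 46.8% and 8.68% of all genes in the same order. Calls of single genes without CTTN replicate 2 or 3 given below come from these fits. Leaving out control replicates 1, 2 or 3 left 28, 12 and 15 calls, with 0 among the members each time.

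**Figure D2:**
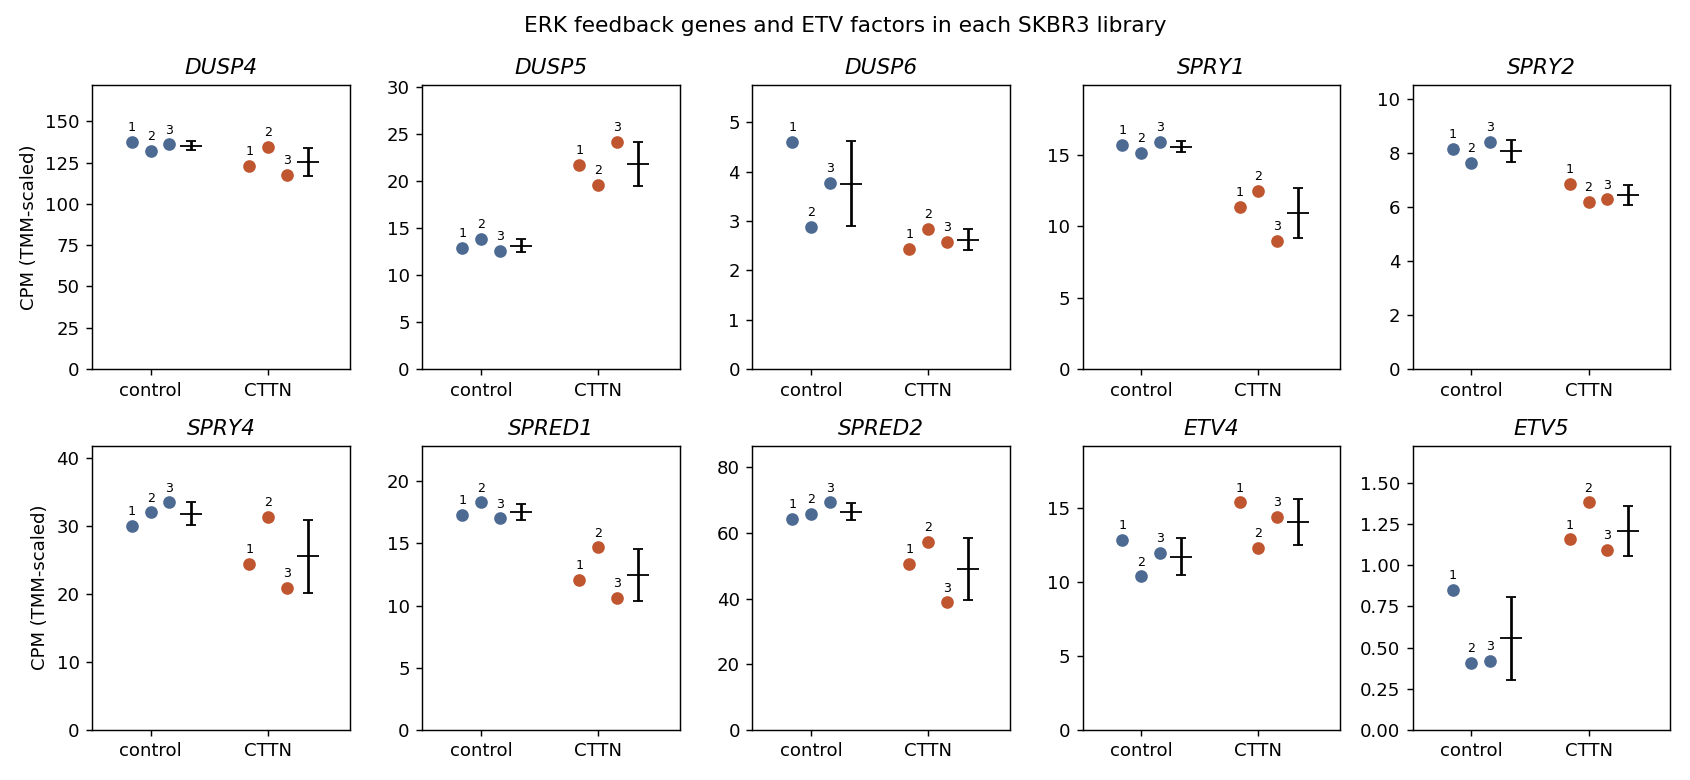
Levels in CPM, scaled by TMM factors (vertical axis, from 0), for each of the 10 genes in 3 control and 3 CTTN libraries, with replicate numbers beside the points and bars for mean and SD. DUSP5 and ETV5 lie higher in every CTTN library, whereas DUSP6, SPRY1, SPRY2, SPRED1 and SPRED2 lie lower in every CTTN library.

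DUSP5 encodes a nuclear phosphatase that is specific for ERK, and its row (XLOC_005862) lies at chr10:110497838-110511544 of GRCh38. It was at 21.7, 19.6 and 24.2 CPM in CTTN replicates 1 to 3 and at 12.9, 13.9 and 12.5 in the controls. The lowest CTTN library, replicate 2, was above the highest control. The level was 10.04 ± 1.12 FPKM in CTTN cells and 6.07 ± 0.33 in control cells (SD, n = 3 each). DUSP5 was 1.66-fold higher in CTTN cells (95% interval 1.40 to 1.98, log2 0.73, SE 0.11, edgeR adjusted p = 0.0182). Over 17 alternatives its log2 fold change lay between 0.64 and 0.80, and its adjusted p between 7.12e-06 and 0.129, with 7 of them above the threshold. The edgeR call ended without CTTN replicate 1 (adjusted p = 0.117) and without control replicates 1, 2 or 3 (0.115, 0.109 and 0.129), and limma on FPKM did not call it (adjusted p = 0.0687 and 0.0619 with pseudocounts of 1 and 0.1), nor did edgeR with the replicate block over 3 pairs (adjusted p = 0.0842). It held in edgeR with the length offset (log2 0.70, adjusted p = 0.00303), without CTTN replicate 2 (log2 0.80, adjusted p = 0.00154) and without CTTN replicate 3 (log2 0.66, adjusted p = 0.00474).

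DUSP4, another nuclear phosphatase of ERK and related kinases, was the most abundant member per length, at a mean of 26.2 FPKM over the 6 libraries. It was at 123, 134 and 118 CPM in the CTTN libraries and at 138, 132 and 136 in the controls. The groups overlapped, since CTTN replicate 2 lay inside the control range. Its log2 fold change was -0.11 (SE 0.08, edgeR adjusted p = 0.351), with a 95% interval from 0.81- to 1.06-fold. DUSP4 has a main isoform of 5537 bases, and with the length offset the sign turned, to 0.15 (edgeR adjusted p = 0.233, within a range of 0.0840 to 0.808 over its alternatives).

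DUSP6 encodes the cytoplasmic ERK phosphatase commonly read as a marker of the pathway, and it was scarce in these cells. It was at 2.43, 2.85 and 2.58 CPM in the CTTN libraries and at 4.61, 2.88 and 3.78 in the controls. In CPM the groups did not overlap, but the highest CTTN library and control replicate 2 were nearly equal. In FPKM they overlapped, with CTTN replicate 2 at 1.235 and control replicate 2 at 0.972. These levels rested on 85 to 163 reads per library. DUSP6 had a log2 fold change of -0.52 (SE 0.19, edgeR adjusted p = 0.145) and was not called. It was -0.50 without CTTN replicate 3 (edgeR adjusted p = 0.165) and -0.35 with the length offset (edgeR adjusted p = 0.239). Without CTTN replicate 2 the call was made (log2 -0.59, edgeR adjusted p = 0.0475, the lowest over its alternatives, which reached 0.348).

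The order of the phosphatases per length was the same in both groups, with DUSP4 above DUSP5 and DUSP5 above DUSP6. In control cells they stood at 27.5 ± 0.53, 6.07 ± 0.33 and 1.64 ± 0.65 FPKM (SD, n = 3). In CTTN cells the values were 24.9 ± 2.23, 10.04 ± 1.12 and 0.89 ± 0.31 FPKM. No library broke this order.

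The 5 Sprouty and SPRED genes all had fold changes below 0, and 0 of them was called by edgeR. At an unadjusted p under 0.05 there were 4 of the 5, and DESeq2 called 2. Of all genes, 29.4% had an unadjusted p under 0.05. DESeq2 called 13.2% of the 14048 genes to which it gave an adjusted p, and its shares below are of those genes. The median log2 fold change of the 5 was -0.44, beside 0.01 over all genes tested. In 4 of the 5 every CTTN library lay below every control library, a pattern that 19.4% of all genes tested showed in this direction.

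SPRY1 encodes a membrane-associated inhibitor of receptor tyrosine kinase signalling. It was at 11.4, 12.5 and 9.01 CPM in the CTTN libraries and at 15.7, 15.2 and 15.9 in the controls. All CTTN values were below the controls, with replicate 3 the lowest, and the controls were close together. SPRY1 had a log2 fold change of -0.51 (SE 0.13, edgeR adjusted p = 0.0768) and was not called. DESeq2 called it (adjusted p = 0.0191), as did edgeR with the length offset (log2 -0.56, adjusted p = 0.0288). It was also called by edgeR without CTTN replicate 2 (log2 -0.62, adjusted p = 0.00444) or replicate 3 (log2 -0.39, adjusted p = 0.0366), and the highest adjusted p over its alternatives was 0.269.

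SPRY2, a second inhibitor of the same family, was at 6.87, 6.20 and 6.28 CPM in the CTTN libraries and at 8.14, 7.63 and 8.41 in the controls. The groups were apart, and here CTTN replicate 3 was not the lowest. With all libraries its log2 fold change was -0.32 (SE 0.10, edgeR adjusted p = 0.108), and with the length offset it was -0.41 (adjusted p = 0.0275, the lowest of its alternatives, which reached 0.316).

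SPRY4, a further Sprouty inhibitor, was at 24.4, 31.3 and 20.8 CPM in the CTTN libraries and at 30.0, 32.0 and 33.4 in the controls. CTTN replicate 2 lay within the controls and the other CTTN libraries below them. Its log2 fold change was -0.32 (SE 0.15, edgeR adjusted p = 0.204) with all libraries. It was -0.12 with the length offset (edgeR adjusted p = 0.270) and -0.50 without CTTN replicate 2 (edgeR adjusted p = 0.0061), where it was called, and the adjusted p over its alternatives reached 0.432.

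SPRED1 encodes a Ras pathway inhibitor that works together with neurofibromin. It was at 12.1, 14.7 and 10.6 CPM in the CTTN libraries and at 17.3, 18.3 and 17.0 in the controls. The groups did not overlap, and CTTN replicate 2 was nearest to the controls. SPRED1 had a log2 fold change of -0.49 (SE 0.13, edgeR adjusted p = 0.0833) and was not called. DESeq2 called it (adjusted p = 0.0236), as did edgeR without CTTN replicate 2 (log2 -0.64, adjusted p = 0.0028) and with the replicate block over 2 pairs (log2 -0.41, adjusted p = 0.0386), but not edgeR with the block over 3 pairs (log2 -0.50, adjusted p = 0.124). Its main isoform is 7780 bases long, and with the length offset the log2 fold change was -0.13 (edgeR adjusted p = 0.279, within a range of 0.0028 to 0.303 over its alternatives).

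SPRED2, its close relative, was the most abundant of the 5 per length, at 14.3 ± 3.27 FPKM in CTTN cells and 19.4 ± 0.94 FPKM in control cells (SD, n = 3). In CPM it was at 50.6, 57.4 and 38.8 in the CTTN libraries and at 64.4, 65.9 and 69.3 in the controls. Every CTTN library was below every control, with replicate 3 far below the rest. SPRED2 had a log2 fold change of -0.44 (SE 0.14, edgeR adjusted p = 0.118) and was not called. Without CTTN replicate 3 it was -0.30 (edgeR adjusted p = 0.0622). It was called without CTTN replicate 2 (log2 -0.58, edgeR adjusted p = 0.00536) and with the length offset (log2 -0.31, edgeR adjusted p = 0.0376), and the adjusted p over its alternatives reached 0.327.

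**Figure D3:**
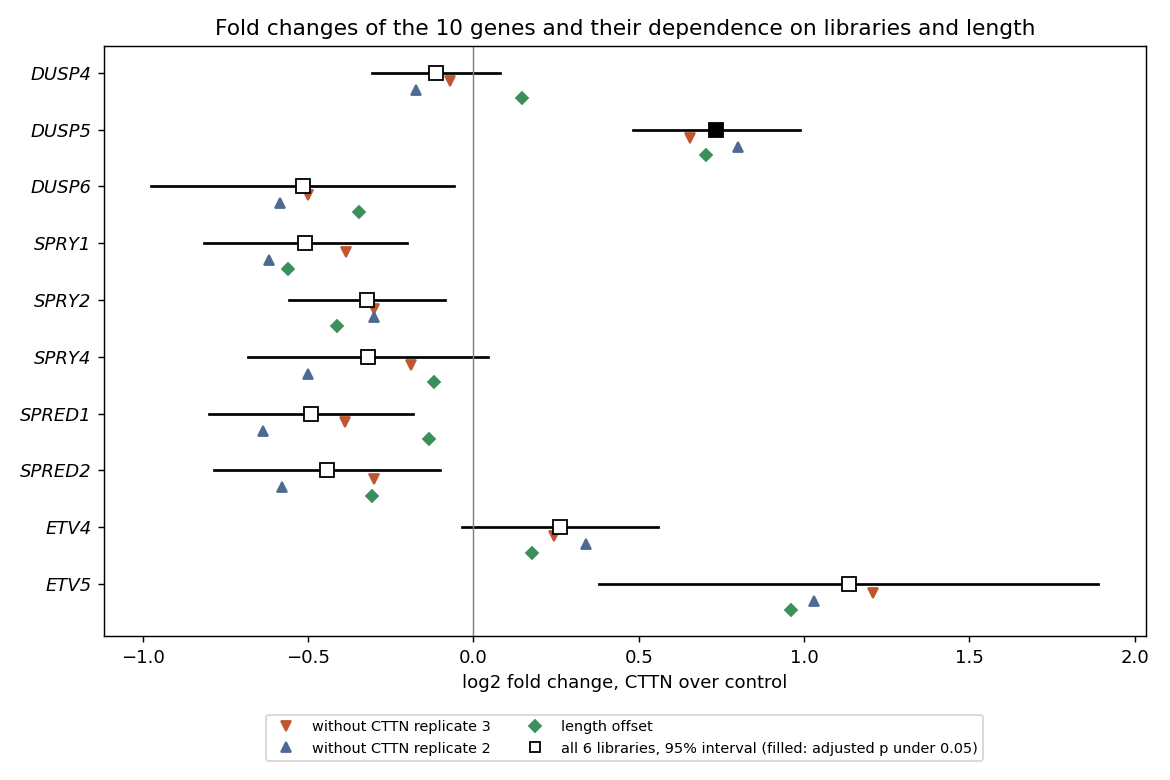
Log2 fold change of CTTN over control (horizontal axis) for the 10 genes, as squares with 95% intervals from all 6 libraries, filled where the adjusted p was under 0.05. Triangles leave out CTTN replicate 3 or 2 and diamonds add the length offset, which brings SPRED1 from -0.49 to -0.13 and leaves DUSP5 near 0.70.

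Promoter sequences are shown for SPRY1, SPRED1 and SPRED2, because these are the Sprouty and SPRED genes with the lowest fold changes. RefSeq promoter windows (GRCh38.p14, 300 bases, of which 250 lie before the start) existed for 6 of the 10 members, in 10 windows, for SPRY1, SPRY2, SPRY4, SPRED1, SPRED2 and DUSP6. DUSP4, DUSP5, ETV4 and ETV5 had no entry. The whole windows were searched, and the first 270 bases are printed. Capitals mark GGAA, the core of ETS factor sites, or TGACTCA, the AP-1 site, on either strand. SPRY1 has 2 windows, and the other, at chr4:123398136-123398405 on the plus strand, is not printed. The first line is the first window of SPRY1 on the plus strand at chr4:123396545-123396814, whose start lies at the first base of the gene's locus. The second is SPRED1 on the plus strand at chr15:38252586-38252855. The others are SPRED2 on the minus strand, at chr2:65432580-65432849 and at chr2:65366759-65367028.
SPRY1, first window: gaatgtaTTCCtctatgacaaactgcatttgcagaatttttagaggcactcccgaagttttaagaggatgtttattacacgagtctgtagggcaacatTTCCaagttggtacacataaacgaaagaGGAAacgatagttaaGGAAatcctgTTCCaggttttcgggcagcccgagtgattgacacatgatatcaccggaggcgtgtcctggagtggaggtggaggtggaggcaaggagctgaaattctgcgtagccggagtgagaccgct
SPRED1: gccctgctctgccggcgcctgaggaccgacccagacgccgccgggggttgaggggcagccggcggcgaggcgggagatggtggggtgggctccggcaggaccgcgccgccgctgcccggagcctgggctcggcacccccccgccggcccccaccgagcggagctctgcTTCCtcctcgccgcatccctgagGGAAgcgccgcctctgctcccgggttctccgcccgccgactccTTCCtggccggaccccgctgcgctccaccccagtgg
SPRED2, first window: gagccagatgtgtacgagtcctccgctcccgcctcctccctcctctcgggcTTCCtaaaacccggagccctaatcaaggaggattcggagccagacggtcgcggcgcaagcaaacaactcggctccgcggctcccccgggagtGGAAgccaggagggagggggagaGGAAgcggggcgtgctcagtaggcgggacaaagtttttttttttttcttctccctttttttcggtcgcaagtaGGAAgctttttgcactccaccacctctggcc
SPRED2, second window: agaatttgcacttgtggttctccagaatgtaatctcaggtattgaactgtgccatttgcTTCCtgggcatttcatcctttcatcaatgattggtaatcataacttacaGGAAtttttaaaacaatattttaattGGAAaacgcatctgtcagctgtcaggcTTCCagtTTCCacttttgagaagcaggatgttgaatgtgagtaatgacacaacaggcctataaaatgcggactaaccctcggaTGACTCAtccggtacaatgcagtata

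GGAA occurred in all 10 member windows and in 95.5% of the 35116 windows of the same length. TGACTCA occurred in 1 of the 10, the second window of SPRED2, and in 4.95% of all windows. TGAATGAA and TGAATGGA, letters bound by CIC, and TGACGTCA, the cyclic AMP response element, occurred in 0 of the 10 and in 1.65%, 1.03% and 1.85% of all windows. No searched motif lies inside another, though the last letters of TGAATGGA can begin a GGAA. A match describes the letters of the window, and binding was not measured.

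ETV4 and ETV5 had fold changes above 0, and 0 of these 2 was called by edgeR, with 1 at an unadjusted p under 0.05 (29.4% of all genes) and 1 called by DESeq2 (13.2% of all genes). ETV4, a PEA3-type activator of transcription, was at 15.4, 12.3 and 14.4 CPM in the CTTN libraries and at 12.8, 10.4 and 11.98 in the controls. CTTN replicate 2 lay inside the control range, so the groups overlapped. ETV4 had a log2 fold change of 0.26 (SE 0.13, edgeR adjusted p = 0.203). It was 0.24 without CTTN replicate 3 (edgeR adjusted p = 0.253) and 0.18 with the length offset (edgeR adjusted p = 0.244). Without CTTN replicate 2 it was 0.34 and was called (edgeR adjusted p = 0.0346, the lowest over its alternatives, which reached 0.467).

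ETV5, its close relative, was at 1.158, 1.38 and 1.09 CPM in the CTTN libraries and at 0.848, 0.405 and 0.417 in the controls. Every CTTN library was above every control, and control replicate 1 was the nearest to them. The row rested on 41, 52 and 36 reads in the CTTN libraries and 30, 17 and 16 in the controls. It also carried the name of DGKG, an overlapping locus, to which at most 1 estimated read was assigned in any library. ETV5 had a log2 fold change of 1.14 (SE 0.32, edgeR adjusted p = 0.0922), with a 95% interval from 1.30- to 3.71-fold. DESeq2 called it (adjusted p = 0.0399), as did edgeR without CTTN replicate 2 (log2 1.03, adjusted p = 0.0412) and with the replicate block over 2 pairs (log2 1.61, adjusted p = 0.000487), which leaves out control replicate 1, the highest of the controls. The replicate block over 3 pairs did not call it (log2 1.17, edgeR adjusted p = 0.141). By edgeR it was not called without CTTN replicate 3 (log2 1.21, adjusted p = 0.0576) or with the length offset (log2 0.96, adjusted p = 0.0889), and the highest adjusted p over its alternatives was 0.311. The offset used the isoform with the highest FPKM, of 642 bases, whereas between 37.7% and 71% of the estimated reads in each library lay on ENST00000306376, of 4111 bases, so it treated ETV5 as a short transcript. Per length ETV4 was far above ETV5 in every library, at means of 6.41 and 0.67 FPKM.

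Taking the 10 members as a list, 7 had a fold change below 0 and 3 above, and the median log2 fold change was -0.32, beside 0.01 over all genes tested. In CPM, every CTTN library lay below every control library in 5 members and above in 2 members. Of all genes tested, 19.4% were apart in the first way and 19.4% in the second. In each of the 3 CTTN libraries, 7 members were below their control mean, but so were 7 in control replicate 2, with 4 in control replicate 1 and 3 in control replicate 3. The median member log2 ratio to that mean was -0.30 in CTTN replicate 1, -0.12 in replicate 2 and -0.39 in replicate 3, and between -0.04 and 0.03 in the controls. CTTN replicates 1 and 3, which had fewer reads from long transcripts, also had the lower member medians. The part of transcript length in each member's difference was not tested. The offset described above was fitted to these same libraries, so it cannot separate length from a group difference that runs with it. With that offset the members' median was -0.12 and 4 were called, DUSP5 higher and SPRY1, SPRY2 and SPRED2 lower, where the offset called 15.3% of all genes.

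Start sites and isoforms were then examined to see where on each gene the reads lay. These values are estimates that divide shared reads. Of 49 start sites of the members, 24 were tested and 0 was called by edgeR, with 5 at an unadjusted p under 0.05. Of 81 isoforms, 29 were tested and 0 was called, with 7 at an unadjusted p under 0.05, and DESeq2 was not run on these tables. In the whole tables the share called was 0% of 35799 start sites and 0% of 58051 isoforms, so no gene could be placed on a start site by a call. An unadjusted p under 0.05 was reached by 9.95% of all start sites and 5.98% of all isoforms. Of the 24, 8 were lower in every CTTN library and 3 higher, beside 12.5% and 10.9% of all start sites. Levels of starts below are estimated CPM, on the scale of the gene values.

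DUSP5 reads all fell on 1 start site, that of ENST00000369583. DUSP4 reads lay almost wholly on the start of ENST00000240100, with 10.3 to 44.1 reads per library on another. For SPRY4 the start labelled TSS104048 was at 14.8, 17.4 and 19.2 CPM in the CTTN libraries and at 15.8, 15.6 and 17.0 in the controls, so the groups overlapped. The start labelled TSS104049 was at 7.997, 8.89 and 1.60 CPM in the CTTN libraries and at 7.78, 9.95 and 11.5 in the controls, again with overlap. CTTN replicate 3 was thus the highest library on TSS104048 and the lowest on TSS104049. The start labelled TSS104050 was at 1.53 and 4.83 CPM in CTTN replicates 1 and 2, near 0 in replicate 3, and at 6.37, 6.13 and 4.89 in the controls. Every CTTN library was lower there, though CTTN replicate 2 and control replicate 3 were nearly equal (log2 -1.43, SE 1.46, edgeR adjusted p = 0.674).

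On the main start of SPRY1, that of ENST00000622283, the CTTN libraries were at 9.25, 7.65 and 8.80 CPM and the controls at 9.91, 8.03 and 10.6. The groups overlapped there (log2 -0.15, SE 0.18, edgeR adjusted p = 0.731). The start labelled TSS95147 was at 1.35, 4.46 and 0.213 CPM in the CTTN libraries and at 3.82, 5.60 and 4.16 in the controls. CTTN replicates 1 and 3 were low on that start, and replicate 2 lay inside the control range. The start labelled TSS95150 was at 0.764 and 0.229 CPM in CTTN replicates 1 and 2, near 0 in replicate 3, and at 1.85, 1.37 and 1.05 in the controls. There the CTTN libraries were lower without overlap (log2 -2.08, SE 1.23, edgeR adjusted p = 0.532).

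For SPRED2 the starts went in opposite directions. The main start, labelled TSS74687, was at 44.3, 47.8 and 31.8 CPM in the CTTN libraries and at 58.5, 58.4 and 63.8 in the controls. The start labelled TSS74688 was at 4.41, 7.46 and 4.71 CPM in the CTTN libraries and at 2.08, 2.86 and 3.42 in the controls. CTTN libraries were thus lower on the first and higher on the second without overlap, with an adjusted p of 0.497 by edgeR for either. A smaller start, labelled TSS74685, was lower in every CTTN library as well, at 1.71, 1.23 and 0.0839 CPM against 3.54, 4.10 and 1.93 (edgeR adjusted p = 0.529). ETV4 levels were spread over several starts that differed between libraries of the same group. The start of ENST00000591713 was listed at 0 estimated reads in all 3 CTTN libraries and at 66.3, 15.9 and 53.0 in the controls, and was not called (edgeR adjusted p = 0.409).

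**Figure D4:**
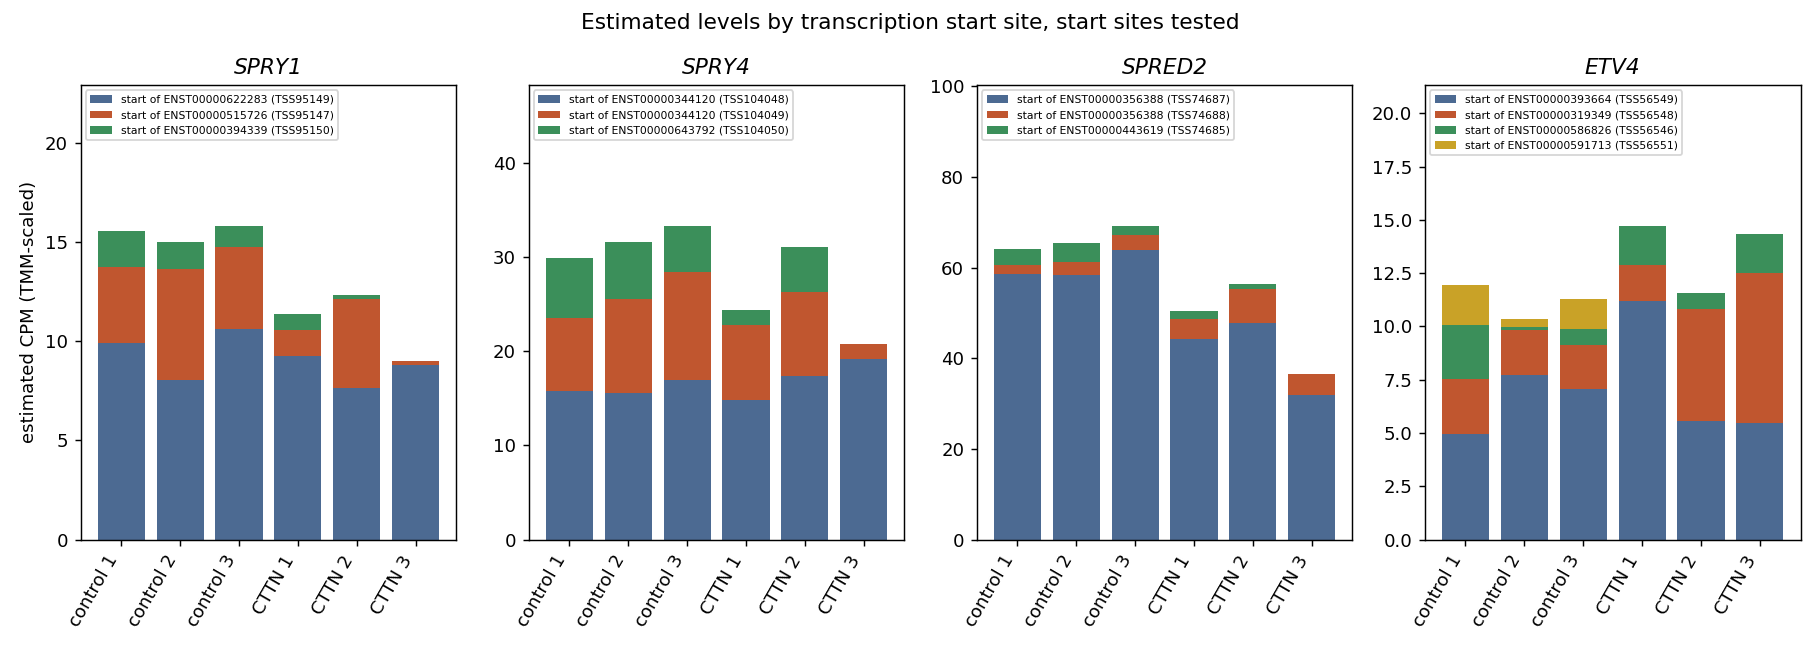
Estimated CPM, scaled by TMM factors (vertical axis, from 0), stacked by transcription start site for SPRY1, SPRY4, SPRED2 and ETV4 in 3 control and 3 CTTN libraries. The largest start of SPRY4 lies between 14.8 and 19.2 CPM in all libraries, and CTTN replicate 3 lacks most of the level of the others.

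Further genes of the pathway were followed by fixed lists. Among 8 tested relatives of the members, 1 was called, and it was lower in CTTN cells, beside 1.79% of all genes. At an unadjusted p under 0.05 there were 2 (29.4% of all genes), and DESeq2 called 2 (13.2%). The called gene was ETV1, the third PEA3-type factor, at 1.38, 1.46 and 1.09 CPM in CTTN cells and 2.83, 3.31 and 2.14 in control cells. These levels rested on 49, 55 and 36 reads in the CTTN libraries and 100, 139 and 82 in the controls. ETV1 was lower without overlap, opposite in sign to ETV4 and ETV5 (log2 -1.07, SE 0.22, edgeR adjusted p = 0.0479). It was also called with the length offset (log2 -0.90, edgeR adjusted p = 0.0239). The call ended without CTTN replicate 1 (edgeR adjusted p = 0.187) and without control replicates 1, 2 or 3 (0.183, 0.210 and 0.105). In these fits the log2 fold change lay between -1.22 and -0.913. The call also ended in edgeR with library totals only (adjusted p = 0.052) and with the replicate block over 3 pairs (0.0728), and in limma (0.0688 and 0.0721 with pseudocounts of 1 and 0.1). The median of these relatives was 0.08.

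Among 20 tested ERK output genes, 1 was called higher and 2 lower, beside 2.06% and 1.79% of all genes, and the median was 0.12. At an unadjusted p under 0.05 there were 9 (29.4% of all genes), and DESeq2 called 7 (13.2%). PLAUR, the urokinase receptor gene, was at 18.4, 15.5 and 20.4 CPM in CTTN cells and 8.03, 8.70 and 9.01 in control cells. It was 2.11-fold higher (log2 1.08, SE 0.12, edgeR adjusted p = 0.0093). PHLDA1, an ERK-induced gene, was at 2.35, 2.13 and 2.64 CPM in CTTN cells and 4.67, 4.91 and 5.08 in control cells, and was lower (log2 -1.04, SE 0.13, edgeR adjusted p = 0.0113). JUN, an AP-1 subunit gene, was at 29.9, 32.6 and 32.9 CPM in CTTN cells and 47.7, 49.7 and 51.1 in control cells, and was lower (log2 -0.64, SE 0.09, edgeR adjusted p = 0.0137). In all 3 genes the CTTN libraries were apart from the controls. Over the whole list, 8 genes were higher and 3 lower in every CTTN library, beside 19.4% of all genes in each direction. The 3 called genes were also called with the length offset, at log2 0.86, -0.75 and -0.54 (edgeR adjusted p of 0.000952, 0.0402 and 0.00466). That offset called 15.3% of all genes. Without CTTN replicate 1 none of the 3 was called, with edgeR adjusted p of 0.0792, 0.0894 and 0.116 for PLAUR, PHLDA1 and JUN. Leaving out any control replicate ended these calls too, with edgeR adjusted p between 0.0739 and 0.0892 for PLAUR, 0.069 and 0.0932 for PHLDA1, and 0.086 and 0.12 for JUN. In these fits the log2 fold change lay between 1.02 and 1.11 for PLAUR, -1.09 and -1.02 for PHLDA1, and -0.675 and -0.598 for JUN. The replicate block over 3 pairs ended the calls of PHLDA1 and JUN (edgeR adjusted p = 0.0591 and 0.0708), and limma that of PHLDA1 (adjusted p = 0.0711 and 0.0776 with pseudocounts of 1 and 0.1).

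The ERK cascade itself, from Ras to ERK and its kinases, had 0 of 24 tested genes called by edgeR, with 8 at an unadjusted p under 0.05 and 4 called by DESeq2, beside 29.4% and 13.2% of all genes. Its median was -0.03, and 0.05 either with the length offset or without CTTN replicate 3. PEBP1, a RAF inhibitor gene, was at a mean of 162 FPKM (log2 0.31, edgeR adjusted p = 0.134). Brakes of Ras and receptors had 0 of 18 called, with 5 at an unadjusted p under 0.05 (29.4% of all genes) and 4 by DESeq2 (13.2%). The median of the brakes was -0.17, but -0.04 without CTTN replicate 3 and 0.05 with the length offset. The most abundant were a row that SPINT2 shares with other loci, at 836 FPKM (log2 0.30, edgeR adjusted p = 0.272), and ERRFI1, a HER-family inhibitor gene, at 26.9 FPKM (log2 0.03, edgeR adjusted p = 0.841).

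Of 12 tested receptor tyrosine kinases, 1 was called higher and 1 lower, beside 2.06% and 1.79% of all genes, with a median of -0.14. At an unadjusted p under 0.05 there were 5 (29.4% of all genes), and DESeq2 called 3 (13.2%). FGFR4, a fibroblast growth factor receptor gene, was at 38.4, 38.0 and 45.3 CPM in CTTN cells and 26.8, 26.6 and 29.6 in control cells, 1.47-fold higher (log2 0.55, SE 0.11, edgeR adjusted p = 0.0391). INSR, the insulin receptor gene, was at 10.1, 14.7 and 10.5 CPM in CTTN cells and 21.5, 21.7 and 21.0 in control cells, and was lower (log2 -0.86, SE 0.15, edgeR adjusted p = 0.0317). The isoform that leads INSR is 9093 bases long. With the length offset, which called 15.3% of all genes, both were called, FGFR4 at log2 0.47 (edgeR adjusted p = 0.00759) and INSR at -0.45 (edgeR adjusted p = 0.031). For FGFR4 the offset used an isoform of 2210 bases, whereas the isoform with most estimated reads has 3122. Without CTTN replicate 1 neither was called (edgeR adjusted p = 0.156 for FGFR4 and 0.153 for INSR), nor without any control replicate (0.153 to 0.219 for FGFR4 and 0.15 to 0.183 for INSR). In these fits the log2 fold change lay between 0.519 and 0.6 for FGFR4 and between -0.876 and -0.762 for INSR. The replicate block over 3 pairs ended both calls (edgeR adjusted p = 0.0933 and 0.0728), as did limma (adjusted p = 0.0742 and 0.0692 for FGFR4 and 0.125 and 0.134 for INSR, with pseudocounts of 1 and 0.1).

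The list of ETS factors, the repressor CIC, its partners ATXN1 and ATXN1L, and SRF, which binds DNA together with ETS factors, had 0 of 23 called, with 10 at an unadjusted p under 0.05 (29.4% of all genes) and 5 by DESeq2 (13.2%). The median was -0.19, and -0.08 with the length offset. The most abundant were the row that ELF3 shares with another locus, at 242 FPKM (log2 -0.15, edgeR adjusted p = 0.272) and SPDEF at 156 FPKM (log2 0.33, edgeR adjusted p = 0.111).

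The 6 calls in these lists were as sensitive to single libraries as the members were. There were 0 without CTTN replicate 1 or without any control replicate, 63 without CTTN replicate 2 (46.8% of all genes were called there) and 18 without CTTN replicate 3 (8.68%). All 6 genes stayed called in these last fits.

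**Figure D5:**
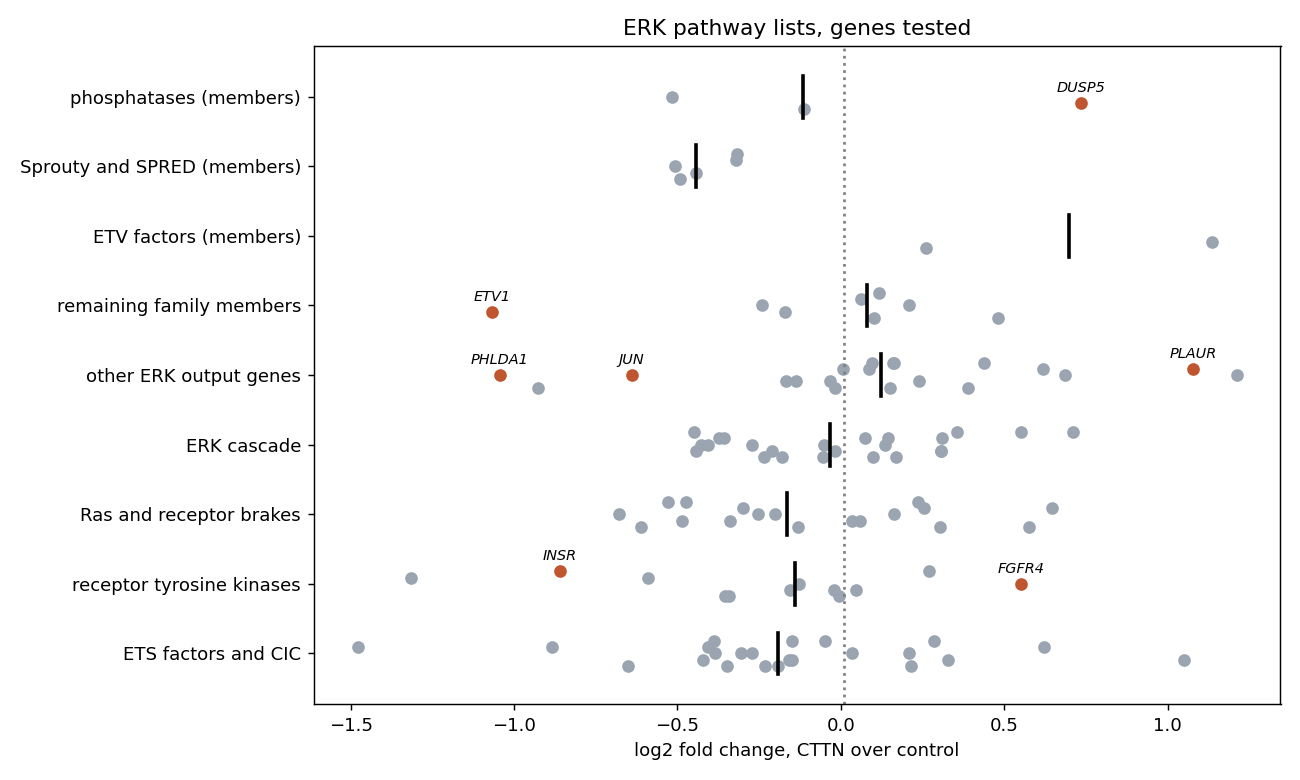
Log2 fold change of CTTN over control (horizontal axis) for each tested gene in 9 fixed lists, with called genes named and in orange, list medians as black bars and the median of all genes as a dotted line. DUSP5, PLAUR and FGFR4 lie above 0, and ETV1, PHLDA1, JUN and INSR below.

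As a description over the 6 libraries, the genes whose log2(FPKM + 1) most resembled that of DUSP4, the most abundant member, were UBAP2 in a row shared with SNORD121B (Pearson r = 0.9991), RAP1GAP2 (r = 0.9991) and PKD2 (r = 0.9986), among 11900 genes. The 6 points share the library differences in transcript length given above.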

How the data were processed

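Stranded mRNA libraries of 3 control and 3 CTTN SKBR3 replicates were sequenced as paired ends. According to the submitters' notes, bcl2fastq 2.20.0, Trimmomatic, STAR and Cufflinks were used with GRCh38, whereas the study's methods name another build and trimmer. The loci follow GRCh38. The gene table deposited by the authors holds a normalised signal, gene counts divided by a size factor, and the size factors were deposited by the authors as a ratio per library. The authors also deposited FPKM values and estimated counts per start site and isoform. Multiplying by the size factor gave whole reads for 100% of values under 50 (within 0.02) and for 98.7% to 99.96% of all values above 0 (within 0.1), and the products were rounded. The estimated counts were put on the same scale and rounded.

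Genes were tested with edgeR 4.0.16 in R 4.3.3 (TMM, filterByExpr, robust quasi-likelihood, Benjamini-Hochberg over all genes tested, threshold 0.05), which called 555 genes. Standard errors were taken from the F statistic. Alternatives used DESeq2 1.42.0, limma 3.58.1 on log2(FPKM + 1) or log2(FPKM + 0.1) with a mean FPKM of at least 0.1, other scalings and filters, leaving out each replicate, replicate blocks and the length offset (a loess of span 0.3). The fits were tested on simulated data with the same dispersion in every gene and no library differences by transcript length. They were thus not tested under the library differences found here. Exact permutation of 3 against 3 libraries cannot give a two-sided p under 0.1, so it was not used.

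Control libraries are numbered as in the series' own sample table, since the labels give the control columns other names. Members and lists were chosen with earlier results of these data known. Named genes were all members, CTTN, up to 4 called genes per list or the 2 most abundant, and the 3 genes most like the most abundant member among those with a mean FPKM of at least 1. The cell type markers ERBB2, CDH1, COL1A1, KRT5, KRT14, PECAM1, VWF and KDR were named from the marker lists outside this rule. CDH5 and TP63 were named after their values were seen. For the ERK cascade, 1 of the 2 genes this rule names is not reported here. Promoter windows came from RefSeq (GRCh38.p14). Protein sequences were not analysed here. P-values measure the spread between replicates, which may be technical where cultures were not separate.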

Additional observations from a re-analysis of the deposited data

How the results depend on the processing

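The direction of 9 of the 10 members held in every alternative run, though ETV5 was not tested under the stricter filter. DUSP4 was the exception, at 0.146 on the log2 scale with the length offset. Beside 555 genes called, and 437 at 1.5-fold, DESeq2 called 1852 and 1006, limma 99 and 96 with a pseudocount of 1 and 110 and 109 with 0.1, and the length offset, chosen after seeing the data, 2198 and 712. Without a count filter 803 of 25834 genes were called, and 665 passed 1.5-fold. Among the members, where 1 was called, DESeq2 called 4, limma 0 with either pseudocount, and the length offset 4. In the pathway lists, where 6 were called, DESeq2 called 25, no count filter 12, limma 2 with either pseudocount and the length offset 31. Of the genes with an adjusted p in each fit, DESeq2 called 13.2%, no count filter 3.11%, limma 0.582% and 0.646%, and the length offset 15.3%. Leaving out 1 replicate gave 12 to 6882 genes, 12 to 3110 at 1.5-fold, 0 to 8 members and 0 to 63 list genes. In each case the cause was not tested. RLE factors, library totals, the stricter filter and the deposited scale kept the counts of calls within 1.5 times.

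Whether the replicate numbers pair the samples was not settled. By the sample table, deviations of same-numbered libraries correlated at 0.03, 0.13 and -0.25, and not every library correlated best with its own number. Deviations also carry the library differences in transcript length, so such values can neither show nor exclude pairing. The replicate block over the 2 pairs whose column names match the labels called 1647 genes (11.4% of all genes), 834 at 1.5-fold, 3 members and 23 list genes. In the numbering used here it pairs CTTN replicate 1 with control replicate 2 and CTTN replicate 2 with control replicate 3. Deviations within these pairs correlated at 0.006 and 0.27. These pairs thus differ from those of the block over 3 pairs. The replicate block over 3 pairs of the sample table, added after seeing the data, called 94 (0.652% of all genes), 94, 0 and 1. DUSP6, ETV5 and ETV1 had 16 to 163 reads per library, and the part of depth in their results was not tested.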
